A study of Mus musculus with 6 samples.

Results

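The integrin subunits that keratinocytes are known to use were followed as 10 genes: the alpha chains Itga2, Itga3, Itga5, Itga6 and Itgav, and the beta chains Itgb1, Itgb4, Itgb5, Itgb6 and Itgb8. They were picked by symbol, and all 10 were found among the 52550 genes of the deposited tables, with 58 of the 131146 transcripts. RNA was sequenced from mouse primary keratinocytes of wild type C57BL/6 animals, isolated from skin epidermis at 0-2 days after birth and grown in plates for 2 days. The untreated group had 3 libraries, and the other 3 came from cells given recombinant IL-33, an alarmin cytokine related to IL-1, for 12 h. The labels of both groups name no other genotype or agent and state no dose of IL-33. Since no label ties a library to its own animal or culture, the p-values here cover the spread between libraries alone, and that spread may be technical.

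Integrins are heterodimers of an alpha and a beta chain that span the plasma membrane and tie the extracellular matrix to the cytoskeleton. In basal keratinocytes α3β1 and α6β4 bind laminin of the basement membrane, and α6β4 is the core receptor of the hemidesmosome, where it holds keratin filaments. α2β1 binds collagen, α5β1 binds fibronectin, and the αv integrins bind ligands with an RGD motif, with αvβ6 and αvβ8 known for activating latent TGF-beta. β1 is shared by many alpha chains, whereas β4 pairs with α6 alone.

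The libraries held 34188173 to 45266298 deposited estimated counts, and IL-33 replicate 2 was the shallowest. By an estimate from low values, about 4 deposited counts stood for 1 sequenced fragment, so a floor of 3 fragments was 12 deposited counts, or 0.265 to 0.351 CPM (counts relative to the total of a library). Basal keratinocyte markers (5 of 5 above the floor in every library) summed to 33686 to 34791 CPM in untreated and 34175 to 36509 CPM in IL-33 libraries. Krt5 and Krt14 made up most of these sums, and Krt15 held only 0.523 to 1.41 CPM in a library. Markers of other cells were also present. The 7 melanocyte markers summed to 1139.9 to 1189 and 1137 to 1238 CPM, the 8 fibroblast markers to 37.4 to 45.9 and 34.7 to 37.6 CPM, and the 5 suprabasal markers to 16.7 to 17.3 and 14.1 to 17.5 CPM. The 4 Merkel cell markers summed to 52.9 to 65.6 and 47.6 to 60.4 CPM, and the 5 endothelial markers to 13.5 to 19.8 and 16.3 to 17.1 CPM, with Emcn at 0 everywhere. Kdr, at 11.6 to 15.8 CPM, made up most of each endothelial sum. Only 2 of the 5 endothelial markers were above the floor in every library, and Cdh5 held at most 9 deposited counts. Of 8 leukocyte markers, 5 were at 0 in every library (Cd3e, Cd207, Trdc, Itgam and Itgax), and Cd68 made up most of the sum of 20.2 to 24.8 and 23.8 to 24.7 CPM. In these bulk libraries fewer cells of a type and less RNA per cell cannot be told apart, and the part of the other cell types in the integrin values was not tested.

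Itga3 had the highest level of the 10 genes, and the laminin receptor chains stood above all others. Levels between genes are given per length, as the authors' FPKM (fragments per kilobase of gene, scaled to depth), with the SD over n = 3 libraries. In untreated cells Itga3 stood at 241 ± 5.33 FPKM, followed by Itgb4 at 144 ± 0.998 FPKM, Itgb1 at 133 ± 1.65 FPKM and Itga6 at 38.9 ± 2.06 FPKM. These 4 genes were apart from each other in every library. Itgb5 (17.7 ± 0.27 FPKM) and Itga2 (17.3 ± 0.548 FPKM) overlapped, and so did Itgb6 (9.08 ± 0.458 FPKM) and Itgav (7.92 ± 2.17 FPKM), while Itga5 lay between these pairs at 14.2 ± 0.0844 FPKM. Itgb8 was close to the floor at 0.0687 ± 0.0206 FPKM, and its 6 libraries held 25 to 50 deposited counts each. With IL-33, Itga3 was again first at 194 ± 13.1 FPKM, and Itgb1 (125 ± 3.03 FPKM) and Itgb4 (122 ± 11.8 FPKM) overlapped. The remaining IL-33 levels were 37.4 ± 7.07 FPKM for Itga6, 16.4 ± 0.231 FPKM for Itgb5, 15.3 ± 2.25 FPKM for Itga2, 13.6 ± 1 FPKM for Itga5, 9.6 ± 0.92 FPKM for Itgb6, 6.52 ± 2.08 FPKM for Itgav and 0.0765 ± 0.0309 FPKM for Itgb8. Itgb5 overlapped Itga2, Itga2 overlapped Itga5, and Itgb6 overlapped Itgav there.

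**Figure D1:**
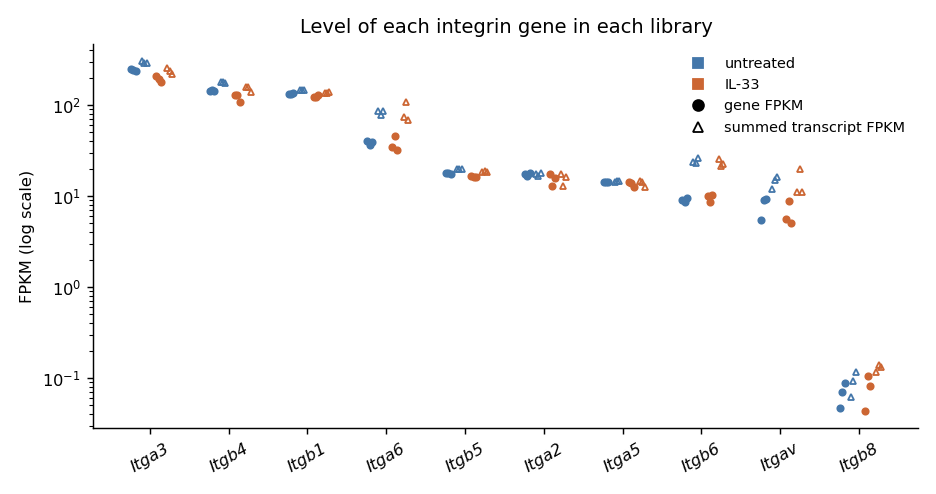
FPKM of each integrin gene in each library on a log axis, with genes in the order of their untreated mean; filled circles are the authors' gene FPKM and open triangles the sum of their transcript FPKM, and each point is 1 of 3 libraries per group. The triangles stand well above the circles for Itga6, Itgb6 and Itgav, and Itgb8 lies far below the other 9 genes.

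The order depends on the length a gene is given. For 94.6% of genes with at least 1000 counts, gene FPKM followed the count per base of all exons merged, within 2%, and merged exons add up to 9025 bases for Itga6 and 10744 bases for Itgav. The main transcripts are shorter, at 4310 bases for Itga6-201 and 7054 bases for Itgav-201. When the authors' transcript FPKM were summed instead, untreated Itga6 came to 83.7 ± 4.87 FPKM, Itgb6 to 24.3 ± 1.66 FPKM and Itgav to 14.5 ± 2.14 FPKM. Itgb6 then ranked 5th, ahead of Itgb5 (19.7 ± 0.0711 FPKM) and Itga2 (17.4 ± 0.55 FPKM), and Itgav overlapped Itga5 (14.4 ± 0.0853 FPKM). The first 4 ranks were held by the same 4 genes on both scales.

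The design asks what 12 h of IL-33 did to transcript levels. No integrin gene passed an adjusted p of 0.05 in edgeR's quasi-likelihood test over all genes (0 of 10), where the background was 0.0697% of 15778 genes tested. The fitted folds of the members ran from 0.803 (Itga3) to 1.10 (Itgb8). On simulated gene counts the same test recovered 2 of 33 genes at a fold of 0.8 and 1 of 34 at 1.25. It thus made few calls there at those folds. Recovery at the levels and spread of the members themselves was not tested. At an unadjusted p under 0.05 there were 3 members, Itga3, Itgb4 and Itgb1, all lower with IL-33, against a background of 3.31% for lower genes, 3.42% for higher genes and 6.74% for either direction. The log2 fold change (IL-33 minus untreated) was below 0 for 8 of the 10 members, with a median of -0.10, and for 49.5% of all genes tested, with a median of 0.0. For 4 members every IL-33 library lay below every untreated library (Itga3, Itgb4, Itgb1 and Itgb5), against 6.26% of all genes, and no member had the opposite separation (7.39% of all genes). DESeq2 called 1 member, Itga3, beside a background of 0.317% of 18902 genes.

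**Figure D2:**
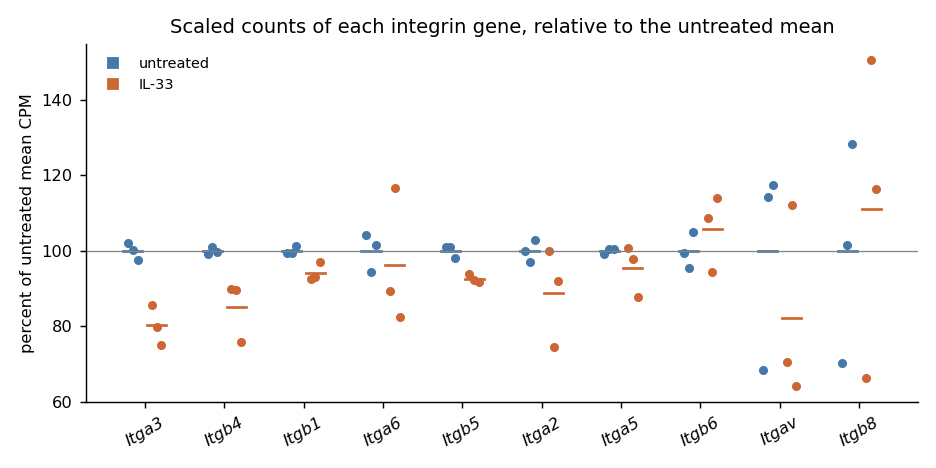
Scaled CPM of each integrin gene in each library as a percentage of the untreated mean of that gene; points are libraries (3 per group) and short bars are group means. The IL-33 points lie apart from and below the untreated points for Itga3, Itgb4, Itgb1 and Itgb5, and the groups overlap for the other 6 genes.

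Itga3 encodes α3, the laminin-binding partner of β1 (ENSMUSG00000001507.16, GRCm38 chr11:95044474-95076801, minus strand). The untreated libraries held 1564, 1534 and 1496 CPM, and the IL-33 libraries 1312, 1224 and 1152 CPM. All IL-33 libraries were below all untreated libraries, and replicate 3 was the lowest of each group. The log2 fold change was -0.32 (SE 0.0476, 95% interval -0.42 to -0.21), a ratio of 0.803, with an unadjusted p of 6.62e-05, the 13th smallest of the 15778. The adjusted p was 0.0768 with edgeR and 7.68e-05 with DESeq2, and ran from 7.68e-05 to 0.352 over the settings tried, with log2 fold changes between -0.37 and -0.27. Without IL-33 replicate 1 it was 0.0273, without IL-33 replicate 3 it was 0.0261, and with no filter on low counts it was 0.0114.

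Itgb4 encodes β4, the hemidesmosomal chain with a long cytoplasmic part (ENSMUSG00000020758.15, chr11:115974709-116008412, plus strand). Its untreated libraries held 1112, 1131 and 1117 CPM, and its IL-33 libraries 1007, 1004 and 849 CPM. The groups did not overlap, and IL-33 replicate 3 lay well below the other IL-33 libraries. Its log2 fold change was -0.23 (SE 0.0623, 95% interval -0.37 to -0.09), with an adjusted p of 0.575 in edgeR and 0.126 in DESeq2. Without IL-33 replicate 3 it was -0.15, with an adjusted p of 0.119 in edgeR. The antisense gene B230344G16Rik shares 537 exonic bases with Itgb4 but held at most 29 deposited counts in a library.

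Itgb1 encodes β1, the common partner of the matrix-binding alpha chains (ENSMUSG00000025809.15, chr8:128685654-128733200, plus strand). Its untreated libraries held 599, 598 and 609 CPM, and its IL-33 libraries 557, 561 and 584 CPM. The groups were apart by a narrow gap, between 584 and 598 CPM. The fit gave a log2 fold change of -0.09 (SE 0.0357, 95% interval -0.17 to -0.01), with an adjusted p of 0.74 in edgeR.

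Itga6 encodes α6, which pairs with β4 in hemidesmosomes (ENSMUSG00000027111.15, chr2:71745616-71858416, plus strand). Its libraries held 406, 368 and 396 CPM untreated, and 349, 455 and 322 CPM with IL-33. IL-33 replicate 2 was the highest of all 6 libraries and the other IL-33 libraries were the lowest. The log2 fold change was -0.06 (SE 0.14, 95% interval -0.41 to 0.30), with an adjusted p of 0.964 in edgeR. IL-33 replicate 2 alone had 3108 counts on Itga6-203, a transcript annotated as noncoding that held 0 or 66 counts elsewhere. With protein-coding transcripts only, the log2 fold change of Itga6 was -0.18, with an adjusted p of 0.65 in edgeR.

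Among the receptors for interstitial matrix, Itga2 encodes the collagen-binding α2 (ENSMUSG00000015533.9, chr13:114833081-114932100, minus strand). It stood at 137, 133 and 141 CPM untreated and at 137, 102 and 126 CPM with IL-33. The groups overlapped, and IL-33 replicate 2 was the lowest library; without it the log2 fold change was -0.07. Its log2 fold change was -0.18 (SE 0.099, 95% interval -0.40 to 0.05), with an adjusted p of 0.777 in edgeR. Itga5 encodes the fibronectin-binding α5 (ENSMUSG00000000555.7, chr15:103344286-103366763, minus strand). It stood at 69.8, 70.6 and 70.6 CPM untreated and at 70.9, 68.8 and 61.7 CPM with IL-33. Only IL-33 replicate 3 was clearly below the rest. The fit gave a log2 fold change of -0.07 (SE 0.0666, 95% interval -0.22 to 0.08), with an adjusted p of 0.887 in edgeR.

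The αv group had small or unstable differences. Itgav encodes αv (ENSMUSG00000027087.11, chr2:83724397-83806916, plus strand) and stood at 64.7, 108 and 111 CPM untreated and at 66.7, 106 and 60.8 CPM with IL-33. Its libraries split into 3 at 60.8 to 66.7 CPM and 3 at 106 to 111 CPM, and both groups had libraries in each range. The log2 fold change was -0.28 (SE 0.335, 95% interval -1.17 to 0.61), with an adjusted p of 0.913 in edgeR. It was -0.50 without untreated replicate 1 and -0.57 without IL-33 replicate 2, and -0.18 to -0.13 without each of the other 4 libraries. Itgb5 encodes the vitronectin receptor chain β5 (ENSMUSG00000022817.14, chr16:33829665-33949338, plus strand) and stood at 66.9, 66.9 and 65 CPM untreated and at 62.2, 61.1 and 60.8 CPM with IL-33. The groups did not overlap. Its log2 fold change was -0.11 (SE 0.0561, 95% interval -0.24 to 0.01), with an adjusted p of 0.763 in edgeR. Itgb6 encodes the epithelial chain β6 (ENSMUSG00000026971.15, chr2:60598292-60722643, minus strand) and stood at 71.4, 68.6 and 75.5 CPM untreated and at 78.1, 67.8 and 81.9 CPM with IL-33. The groups overlapped. The fit gave a log2 fold change of 0.08 (SE 0.0788, 95% interval -0.10 to 0.26), with an adjusted p of 0.884 in edgeR. Itgb8 encodes β8 (ENSMUSG00000025321.14, chr12:119158022-119238802, minus strand) and held 27, 36 and 50 deposited counts untreated and 25, 44 and 44 with IL-33. Every library was above the floor of 12 counts, and the groups overlapped. The log2 fold change was 0.14 (SE 0.44, 95% interval -0.84 to 1.13), an interval that includes differences in both directions.

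**Figure D3:**
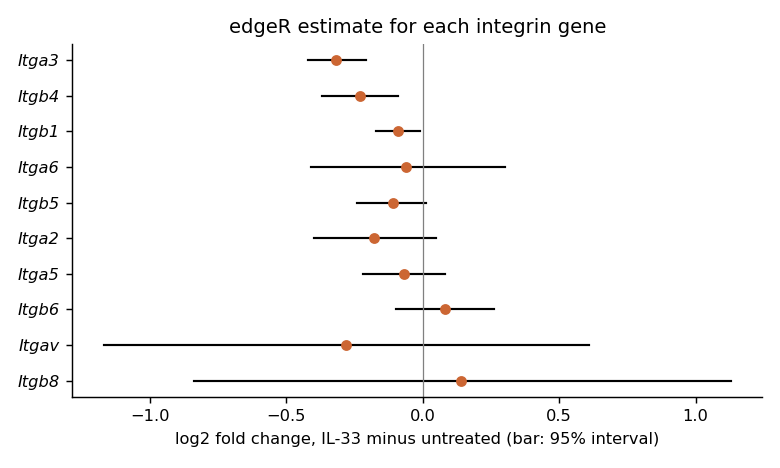
Log2 fold change of each integrin gene (IL-33 minus untreated, edgeR, 3 libraries per group), with bars for the 95% interval of the fit. The intervals of Itga3, Itgb4 and Itgb1 lie below 0, and the widest are those of Itgb8 and Itgav.

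The ratio of an alpha chain to its beta partner within a library does not depend on the scaling between libraries. Of 9 pairs, Itga3/Itgb1 was the only one whose groups were apart. Its ratio of FPKM was 1.87, 1.83 and 1.75 untreated and 1.69, 1.56 and 1.41 with IL-33, a mean of 1.82 ± 0.0584 against 1.55 ± 0.139 (SD, n = 3). The log2 difference was -0.23, with a two-sided exact permutation p of 0.1, the smallest that 3 against 3 libraries can give, and an adjusted p of 0.9 over the 9 pairs. The hemidesmosomal pair Itga6/Itgb4 had a ratio of 0.284, 0.253 and 0.276 untreated and 0.269, 0.353 and 0.294 with IL-33. Its groups overlapped, and the high value was IL-33 replicate 2, the library with 3108 counts on Itga6-203.

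α3 and α6 each come with an A or a B cytoplasmic tail, made by alternative splicing of the last coding exons, and the A form is the usual epithelial α3 and keratinocyte α6. The stretches that are coding in one form and not in the other are printed below, because the shares that follow are named by them. They are the coding sequences, 5′ to 3′ on the strand of the gene, from GENCODE M21 on GRCm38, at chr11:95046483-95046590, chr11:95045611-95045763, chr2:71853534-71853638 and chr2:71855854-71856012. Capitals mark the first 5 codons, the membrane-proximal start of the tail.
Itga3 A tail: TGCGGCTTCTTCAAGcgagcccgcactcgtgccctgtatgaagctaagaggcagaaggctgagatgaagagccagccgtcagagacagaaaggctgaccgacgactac
Itga3 B tail: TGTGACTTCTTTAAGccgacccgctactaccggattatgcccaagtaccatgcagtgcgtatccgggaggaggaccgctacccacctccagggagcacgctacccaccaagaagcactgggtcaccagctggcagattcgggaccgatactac
Itga6 A tail: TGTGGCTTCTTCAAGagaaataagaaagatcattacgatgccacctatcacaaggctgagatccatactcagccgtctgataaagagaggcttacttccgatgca
Itga6 B tail: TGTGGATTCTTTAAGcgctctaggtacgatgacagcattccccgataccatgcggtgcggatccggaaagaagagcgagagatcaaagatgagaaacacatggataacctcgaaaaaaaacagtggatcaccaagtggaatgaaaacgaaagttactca
In those 15 bases the A tails of the 2 genes matched at 14 positions and the B tails at 13, while A and B matched at 12 within Itga3 and at 13 within Itga6. Between the genes, Itga3 B matched Itga6 A at 13 and Itga3 A matched Itga6 B at 12. The B tails were thus no more alike than some A and B pairs. After that stretch the tails run on for different lengths, to 108 and 105 bases in the A forms and 153 and 159 bases in the B forms.

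Nearly all α3 transcript counts were of the A form. Its share of the counts on coding transcripts with either tail was 99, 98.9 and 98.1% untreated and 98.4, 99.4 and 98.9% with IL-33. The groups overlapped within a range of 98.1 to 99.4%. The α6 A form (Itga6-201 with the partial transcript Itga6-207) took 87.1, 87.6 and 88.3% untreated and 87.8, 98.9 and 88.4% with IL-33. All libraries but IL-33 replicate 2 lay between 87.1 and 88.4%. That library held 139 counts on the B form transcript Itga6-202, against 1637 to 2338 in the other 5. It is also the library with 3108 counts on Itga6-203, which is annotated as noncoding and is left out of these shares. The exact permutation p was 0.6 for α3 and 0.2 for α6.

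Itga3 also has annotated starts far apart, and both were in use by the assigned counts. Itga3-201 begins at the upstream start and Itga3-202 at the downstream start. The first exon of Itga3-201 has 584 bases, of which 0 are shared with an exon of Itga3-202. That of Itga3-202 has 487 bases, of which 128 are shared with an exon of Itga3-201. The coding lengths of Itga3-201 and Itga3-202 are 3159 and 3066 bases. The 300 bases around each start (250 before and 50 after, GRCm38.p6, minus strand, from RefSeq) are at chr11:95076665-95076964 and chr11:95069149-95069448. They are shown because the counts of the gene divide between these starts, and capitals mark matches to the motifs listed after them.
Itga3 upstream start: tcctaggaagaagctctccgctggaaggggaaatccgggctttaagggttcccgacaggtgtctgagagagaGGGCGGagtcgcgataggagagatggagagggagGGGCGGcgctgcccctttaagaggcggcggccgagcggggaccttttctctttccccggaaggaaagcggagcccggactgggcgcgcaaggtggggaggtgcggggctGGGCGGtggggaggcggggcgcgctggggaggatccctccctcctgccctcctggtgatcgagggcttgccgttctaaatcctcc
Itga3 downstream start: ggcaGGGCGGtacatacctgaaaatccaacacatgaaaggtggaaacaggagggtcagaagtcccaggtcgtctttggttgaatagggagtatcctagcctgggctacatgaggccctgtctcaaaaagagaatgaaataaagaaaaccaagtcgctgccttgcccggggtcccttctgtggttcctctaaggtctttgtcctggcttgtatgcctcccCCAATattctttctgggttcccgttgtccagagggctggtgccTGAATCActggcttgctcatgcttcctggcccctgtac
The motifs searched on both strands were AP-1 (TGANTCA), the GC box (GGGCGG), the CCAAT box (CCAAT), the TATA box (TATAAA) and NF-kB. They were found in 7.8, 35.7, 37.4, 13.6 and 4.5% of the 32851 promoter windows of that length. The upstream window had 3 GC boxes and no other match, with 66.7% GC and 24 CpG, against medians of 52.7% and 7 over all windows. The downstream window had 1 match to the AP-1 pattern, 1 CCAAT box and 1 GC box, with 52.3% GC and 5 CpG. The AP-1 pattern leaves its middle base free, and the stretch matched here reads TGAATCA, with A at that base. It is a match to this loose pattern only. A match describes these letters and is not a bound site.

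The downstream start took 56.5, 56 and 67.2% of the counts of the coding Itga3 transcripts untreated and 67.6, 68.8 and 57.6% with IL-33. Both groups had libraries at 56 to 57.6% and at 67.2 to 68.8%, and they overlapped (exact permutation p of 0.2). Itga3-201 stood at 666, 661 and 465 CPM untreated and 408, 371 and 479 CPM with IL-33. Itga3-202 stood at 888, 865 and 1013 CPM untreated and 895, 836 and 669 CPM with IL-33. Neither transcript had separate groups, in contrast to the gene, and the edgeR log2 fold changes were -0.51 (SE 0.173) and -0.20 (SE 0.125). The value of Itga3-202 moved to -0.13 without untreated replicate 3 and to -0.09 when IL-33 replicate 3 was left out.

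For Itgb6 nearly all counts were on transcripts from the downstream of its annotated starts. That share was between 99.2 and 99.97% in the 6 libraries. The windows around the starts are printed to set the used start beside the nearly unused one (RefSeq, GRCm38.p6, minus strand, chr2:60722554-60722853 and chr2:60673644-60673943).
Itgb6 upstream start: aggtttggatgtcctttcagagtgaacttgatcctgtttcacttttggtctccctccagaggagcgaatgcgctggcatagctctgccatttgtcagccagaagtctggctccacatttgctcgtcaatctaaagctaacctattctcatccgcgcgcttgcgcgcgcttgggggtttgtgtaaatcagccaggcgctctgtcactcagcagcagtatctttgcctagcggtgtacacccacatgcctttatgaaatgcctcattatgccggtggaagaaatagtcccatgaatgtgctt
Itgb6 downstream start: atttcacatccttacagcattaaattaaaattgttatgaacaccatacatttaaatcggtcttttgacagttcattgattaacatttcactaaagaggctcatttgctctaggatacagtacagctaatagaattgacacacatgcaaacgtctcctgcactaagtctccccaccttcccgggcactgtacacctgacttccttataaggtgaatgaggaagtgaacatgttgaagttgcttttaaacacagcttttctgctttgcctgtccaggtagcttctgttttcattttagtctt
None of the 5 motifs matched in either window, so no letters are in capitals. The downstream window was AT-rich, with 38.3% GC and 3 CpG, and the upstream window had 50.3% GC and 12 CpG. Among the transcripts from the downstream start, Itgb6-202 took 41.3, 41.3 and 40.6% of the Itgb6 counts untreated and 43.4, 41.1 and 71.8% with IL-33. Itgb6-209 has 2410 exon bases against 4806 in Itgb6-202, and 2266 annotated coding bases against 2361. It took 51, 43.6 and 40.6% untreated and 48.1, 49.5 and 17.6% with IL-33. IL-33 replicate 3 stood apart for both. RefSeq windows were matched for 8 of the 10 members, and those of Itga6 and Itgb4 were not.

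The division of Itgb4 counts among its transcripts swung widely between libraries of the same group. Itgb4-202 took 76.6, 56.2 and 28.2% untreated and 23.4, 46.4 and 54.2% with IL-33. Itgb4-204 took 0, 20.7 and 49.97% untreated and 54, 38.3 and 0% with IL-33. Each group had a library at 0% and a library in which this form took the largest share. Of the counts on coding Itgb4 transcripts, those with a 159-base coding exon (chr11:116005897-116006055) took 0.485, 22.6 and 52% untreated and 55.6, 45.4 and 0.369% with IL-33. Coding transcripts with a 195-base exon (chr11:116004904-116005098) took 21.1, 20.2 and 19.6% of the same counts untreated and 20.6, 7.37 and 42.8% with IL-33. The gene total of Itgb4 had an SD of 10 CPM on 1120.01 CPM in untreated cells and of 90.2 CPM on 954 CPM with IL-33.

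**Figure D4:**
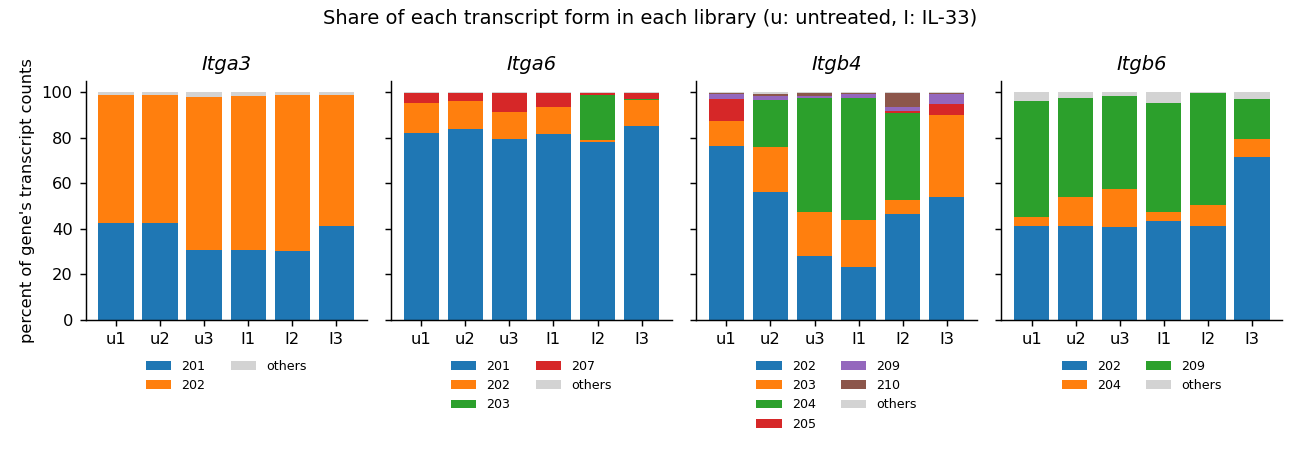
Share of each transcript in the deposited transcript counts of Itga3, Itga6, Itgb4 and Itgb6, as a percentage, in untreated (u1 to u3) and IL-33 (I1 to I3) libraries; transcripts under 4% in every library are grouped as others. The shares of Itgb4-202 and Itgb4-204 swing between libraries of the same group, Itga6-203 appears in IL-33 replicate 2, and Itgb6-202 is highest in IL-33 replicate 3.

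The remaining members had most counts on 1 transcript. Itga2-201 held 99.9 to 100% and Itga5-201 99.6 to 100% of their genes' counts, and Itgb1-201 held 90.9 to 92%. Itgav-201 held 94.5, 98.7 and 98.1% untreated and 81, 94.7 and 94.9% with IL-33. Itgb5-202 held 95.2, 99.9 and 97.8% untreated and 96.2, 83.9 and 92.5% with IL-33. Itgb8-201 held 100% in each untreated library and 52, 100 and 90.9% with IL-33, where Itgb8-202 held 32, 0 and 9.09%, on 25 to 50 deposited counts of the gene in a library. Of the 58 member transcripts, 33 passed the filter on low counts and 0 were called by edgeR, where the background was 0.0299% of 40163 transcripts. DESeq2 and limma on log2(FPKM + 0.1) also called 0 of them. At an unadjusted p under 0.05 there were 3 (Itga3-201, Itgb1-201 and Itgb5-202), all lower, against 2.14% of all transcripts for lower and 4.24% for either direction. On simulated transcript counts with 200 transcripts changed, the same test recovered 0. On simulated gene counts it recovered 98 of 200, few of them at folds of 0.8 or 1.25. For the 17 shares the exact permutation test of 3 against 3 libraries cannot go below p = 0.1, so it could not make a call.

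Integrin genes outside the 10 were scarce. Of 17, the 9 that passed the filter were Itga1, Itga2b, Itga4, Itga7, Itga8, Itga9, Itga10, Itgb3 and Itgb7, with group means from 0.626 to 2.62 CPM. None was called by edgeR or DESeq2, and 0 had an unadjusted p under 0.05. Their median log2 fold change was -0.10, and it was 0.28 without untreated replicate 3 and 0.01 when IL-33 replicate 2 was left out. The leukocyte chains Itgad, Itgal, Itgam and Itgax and the gene Itgb2l were at 0 in every library. Itgae and Itga11 were at or under the floor in every library, and Itgb2 exceeded it in 1 library with 16 counts.

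Genes that work with integrins were read from lists by function. Of 26 matrix ligands, 24 were tested, 6 were above 0 and 18 below, and the median log2 fold change was -0.12 against 0.0 for all genes. None was called by edgeR and DESeq2 called 1 (Lamb1), against 0.317% of all genes. At an unadjusted p under 0.05 there were 9 lower and 1 higher, against 3.31% and 3.42% of all genes. Lamb1, a laminin beta chain, stood at 129, 125 and 124 CPM untreated and 108, 101 and 102 CPM with IL-33. Its log2 fold change was -0.28, with an adjusted p of 0.236 in edgeR and 0.0096 in DESeq2. Lama3, which encodes a laminin alpha chain of the epidermal basement membrane, stood at 613, 582 and 603 CPM untreated and 550.2, 545 and 541 CPM with IL-33. Its groups were apart, and its log2 fold change was -0.14 (edgeR adjusted p of 0.518). For Tnc, which encodes the matrix protein tenascin-C, the log2 fold change was -0.25 (edgeR adjusted p of 0.504). The gene higher at an unadjusted p under 0.05 was Npnt, which encodes nephronectin and was named after its values were seen. It stood at 7.4, 4.04 and 7.04 CPM untreated and 7.64, 8.37 and 11.3 CPM with IL-33, with an edgeR adjusted p of 0.741. Vtn was at 0 in every library and Lamc3 was under the filter. The list also holds the fibroblast markers Col1a1, Col1a2 and Col3a1, whose summed marker list was 37.4 to 45.9 CPM untreated and 34.7 to 37.6 CPM with IL-33, and the part of fibroblasts in these values was not tested.

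The 4 hemidesmosome partners divided evenly, 2 above and 2 below 0, with a median of 0.04 that turned to -0.04 without IL-33 replicate 2, and none was called by edgeR or DESeq2. The 1 gene with an unadjusted p under 0.05, higher with IL-33, was Dst, against 3.42% of all genes in that direction. Dst, which encodes a plakin that links hemidesmosomes to keratin, stood at 1882, 1918 and 1943 CPM untreated and 2070.3, 2198 and 1963 CPM with IL-33. Its log2 fold change was 0.12, with an edgeR adjusted p of 0.74. The groups overlapped for Plec, Col17a1 and Cd151, with log2 fold changes of -0.16, -0.04 and 0.13. Of 38 cytoplasmic adhesion proteins, 15 were above and 23 below 0, with a median of -0.02, and 1 in each direction had an unadjusted p under 0.05, a share no higher than the 6.74% of all genes. The median was 0.01 without IL-33 replicate 3. These 2 genes were the kindlin gene Fermt2 at 0.18 and the tensin gene Tns4 at -0.13 (log2 fold changes, edgeR adjusted p of 0.74 for each). Of 11 membrane partners, 5 were above and 6 below 0, with a median of -0.02 that became 0.01 without untreated replicate 3, -0.05 without untreated replicate 2 and -0.07 without IL-33 replicate 3. The 3 with an unadjusted p under 0.05, against 3.31% of all genes for lower, were all lower: the tetraspanin gene Cd9 at -0.16, Slc3a2, which encodes the CD98 heavy chain, at -0.16, and the urokinase receptor gene Plaur at -0.22. Their edgeR adjusted p were 0.575, 0.548 and 0.74. Of 9 genes of TGF-beta storage and activation, 1 was above and 8 below 0 (49.5% of all genes were below 0), with a median of -0.13. That median was -0.07 with the stricter filter, -0.08 and -0.02 with limma on log2(FPKM + 0.1) and log2(FPKM + 1), -0.10 without untreated replicate 3 and -0.08 without IL-33 replicate 2. The latent TGF-beta binding protein genes Ltbp1 and Ltbp4 were the 2 with an unadjusted p under 0.05 (3.31% of all genes for lower), at -0.21 and -0.20, with edgeR adjusted p of 0.669 and 0.74. No gene of these 3 lists was called by edgeR or DESeq2.

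**Figure D5:**
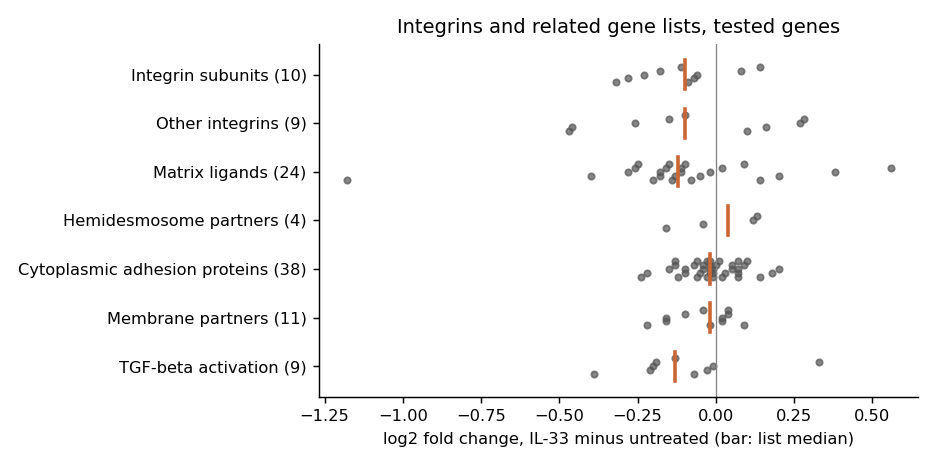
Log2 fold change (IL-33 minus untreated, edgeR) of each tested gene in the integrin list and in each related list, with the number tested in brackets; orange bars are list medians. The medians of the integrin subunits, other integrins, matrix ligands and TGF-beta activation genes lie at -0.10, -0.10, -0.12 and -0.13, and those of the adhesion proteins and membrane partners at -0.02.

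Genes with the profile most like that of a member were ranked by Pearson correlation of log2 CPM over the 6 libraries, among 6103 genes with a mean log2 CPM of at least 5. The values are a description over 6 shared libraries. Itga3 was nearest to Vps26a (r = 0.994) and Dusp11 (0.988), Itgb4 to Prkcsh (0.996) and Cux1 (0.982), and Itgb1 to Tiparp (0.995) and Api5 (0.986). Itga6 was nearest to Ifnar1 (0.988) and Lpin1 (0.978), Itgb5 to Ano6 (0.998) and Vps26a (0.992), and Itga2 to Fastk (0.991) and Drg1 (0.99). Itga5 was nearest to Mfap3 (0.99) and Colgalt1 (0.99), Itgav to Trappc13 (0.992) and Pgrmc2 (0.981), Itgb6 to Stoml2 (0.979) and Mt2 (0.979), and Itgb8 to Dcp1a (0.976) and Mfn1 (0.971). No member was among the 2 nearest genes of another member, but 25 (Itgb8) to 99 (Itgb5) genes per member had r above 0.9. Between members r ran from -0.79 (Itga6 and Itgb6) to 0.98 (Itga3 and Itgb5).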

How the data were processed

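The deposited tables hold the authors' estimated counts and FPKM per gene and per transcript. The submitters' processing notes list StringTie 1.3.4d, HISAT2 2.1.0, FastQC 0.11.7 and DESeq2 1.18.1, with no roles, and the build mm10. For an annotation release not given in the sources used here, 97.16% of transcript identifiers had the same version in GENCODE M21. The deposited estimated counts were whole numbers and needed no rounding. Unrounded transcript values were rebuilt from FPKM and exon length. Their low values piled at 4 and 8, so 4 counts were taken as about 1 fragment. A further pile of 751 to 808 transcripts per library lay at 2, about as high as that at 8 (698 to 804), so the scale is an estimate. The deposited FPKM values were used for levels and ratios as given.

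The main test was edgeR 4.0.16 quasi-likelihood (R 4.3.3, TMM scaling, robust fit, filterByExpr with a minimum count of 10) on all genes or all transcripts, 3 libraries against 3, with Benjamini-Hochberg adjustment and a threshold of 0.05. CPM values are TMM-scaled. Alternatives were DESeq2 1.42.0, limma 3.58.1, other scaling and filters, counts divided by 4, a replicate block and leaving out each library. Protein-coding transcripts only and summed transcript FPKM were alternatives chosen after seeing the data. Named genes were all 10 members, other integrins that passed the filter or were at 0, up to 4 genes of each list by p, transcripts with 10% of a gene's counts, and the 2 nearest profiles. A gene that this rule also names is not reported here. Members and lists were chosen with earlier results of these data known. On simulated counts of 15778 genes, edgeR recovered 98 of 200 changed genes with 17 of 115 calls false. For lower genes it recovered 29 of 33 at a fold of 0.5, 16 of 33 at 0.667 and 2 of 33 at 0.8. For higher genes it recovered 1 of 34 at 1.25, 23 of 34 at 1.5 and 27 of 33 at 2. Floors cover counting error only. No 2 libraries agreed within sampling noise. All 37 mitochondrial genes were at 0, so no mitochondrial share was available.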

Additional observations from a re-analysis of the deposited data

How the results depend on the processing

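Over all genes, the count called was 11 and became 60 with DESeq2, 32 with DESeq2 on counts divided by 4, 17 with no filter, 5 with limma-voom, 6 and 4 with limma on log2(FPKM + 0.1) and log2(FPKM + 1), and 6 at an adjusted p under 0.01. Leaving out a library gave 11 to 90, namely 18 without untreated replicate 3, and 20 and 90 when IL-33 replicate 1 or 3 was left out. Of the 10 integrin genes, 1 (Itga3) was called with DESeq2, with DESeq2 on counts divided by 4, with no filter and at an adjusted p under 0.1, and 0 to 1 when a library was left out (1 when that was IL-33 replicate 1 or 3). Transcript calls went from 12 to 529 with DESeq2 and 34 with limma on log2(FPKM + 0.1), and to 6 to 28 when a library was left out (6 without untreated replicate 2, and 7 and 28 when IL-33 replicate 1 or 3 was left out). The cause was not tested.

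With the replicate block, 8 genes, 0 integrin genes and 0 transcripts were called. Same-numbered libraries deviated together with correlations of 0.066, 0.086 and 0.02, each under 0.1. Those of differently numbered libraries ran from -0.093 to 0.037. No label pairs the samples by number, and these correlations cannot settle whether the numbers pair them.

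The directions of Itga2, Itga3, Itga5, Itgav, Itgb1, Itgb4, Itgb5 and Itgb6 held in every fit run. Those that turned were log2 fold changes of Itga6 (0.05 without IL-33 replicate 3, range -0.22 to 0.05 on leaving out a library), Itgb8 (-0.06 with protein-coding transcripts only, range -0.14 to 0.41), Itgb4-203 (-0.16 with the replicate block, -0.20 with limma on FPKM, range -0.49 to 0.45), Itgb4-204 (-0.48 to 1.40), Itgb6-209 (-0.44 to 0.13) and Itgb8-201 (-0.51 to 0.34). Leaving out a library turned list medians as well: other integrins (-0.10, range -0.22 to 0.28, also 0.02 with limma-voom and 0.01 on counts divided by 4), hemidesmosome partners (0.04, range -0.04 to 0.06), cytoplasmic adhesion proteins (-0.02, range -0.03 to 0.01) and membrane partners (-0.02, range -0.07 to 0.01). Leaving out a library also turned the log2 difference of the ratios Itga2/Itgb1 (-0.20 to 0.01), Itga5/Itgb1 (-0.04 to 0.10) and Itga6/Itgb1 (-0.14 to 0.14), and the share differences, in percentage points, of Itga5-201 (-0.04 to 0.15), Itga6-201 (-2.04 to 1.52), Itgb4-203 (-3.44 to 11.38), Itgb4-204 (-4.55 to 22.6) and Itgb6-209 (-12.27 to 3.69).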
